A study of Mus musculus with 2 samples.

Results

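Methylation of CpG cytosines was described for 9 genes of the muscle progenitor programme, Pax3, Pax7, Six4, Eya1, Eya2, Lbx1, Meox1, Meox2 and Msc. A cytosine was used where it lay in the body of one of these genes or within 1 kb of its annotated start, had at least 5 reads in each library, and fell outside the sequences CCGG and TCGA. This rule gave 1247 cytosines of 706 CpGs, out of 8002 CpGs that the genome holds in these regions and out of 1850635 cytosines compared in the whole data set. The genes were picked by name from 55413 annotated genes, with no methylation value in the rule, although earlier results of these data were known when they were chosen.

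The DNA came from myotubes, the fused muscle cells that form when cultured mouse C3H myoblasts differentiate in low-serum medium. The myotubes received a control short interfering RNA (siCon) or one targeting H19, a long non-coding RNA (siH19), and DNA was taken 48 h later. Reduced representation bisulfite sequencing, in which DNA is cut with MspI and TaqαI before bisulfite treatment, read methylated cytosine as C and unmethylated cytosine as T. Each group was 1 library, so no value has an error between cultures and every test compares 2 libraries, not 2 conditions. The methods describe purchased C3H myoblasts and a common differentiation protocol, and do not state whether both libraries came from the same differentiation. A methylation library measures no RNA, so neither the loss of H19 nor the labelled cell type could be checked here, and the share of cells that had not fused is unknown.

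Pax3 and Pax7 are paired-box transcription factors that mark muscle progenitors in the embryo and satellite cells in the adult, and they act before the myogenic factors Myf5 and MyoD. Six4 and its relatives bind DNA through a homeodomain and recruit Eya proteins, co-activators that also carry phosphatase activity, and the pair works beside the Pax proteins. Lbx1 is needed for progenitors to migrate into the limbs, Meox1 and Meox2 are homeobox factors of the somite, and Msc (musculin) is a basic helix-loop-helix repressor. Most CpG islands at gene starts are unmethylated in healthy cells, and methylation of an island start usually accompanies a silent gene.

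The 9 genes had no common methylation state, and 1 of them, Pax3, carried dense methylation at an island start while another of its islands, inside an intron, was almost free of it. The 3 sequences here are each 200 bp from such islands, chosen for the most compared CpGs outside untranslated exons, and show the contrast between the Pax3 islands beside the low Six4 island. They are GRCm38 sequence on the strand of the gene, and capitals mark the CpGs with at least 1 compared cytosine.
Pax3 start island, chr1:78196543-78196742, minus strand: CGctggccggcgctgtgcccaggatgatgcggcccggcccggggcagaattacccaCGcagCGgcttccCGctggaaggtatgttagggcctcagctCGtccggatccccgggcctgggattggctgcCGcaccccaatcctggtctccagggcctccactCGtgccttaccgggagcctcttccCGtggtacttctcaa
Pax3 intronic island, chr1:78189590-78189789, minus strand: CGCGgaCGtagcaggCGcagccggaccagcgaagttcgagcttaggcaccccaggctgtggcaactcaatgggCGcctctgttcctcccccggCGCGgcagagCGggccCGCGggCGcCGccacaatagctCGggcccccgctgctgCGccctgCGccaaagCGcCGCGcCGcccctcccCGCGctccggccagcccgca
Six4 start island, chr12:73112441-73112640, minus strand: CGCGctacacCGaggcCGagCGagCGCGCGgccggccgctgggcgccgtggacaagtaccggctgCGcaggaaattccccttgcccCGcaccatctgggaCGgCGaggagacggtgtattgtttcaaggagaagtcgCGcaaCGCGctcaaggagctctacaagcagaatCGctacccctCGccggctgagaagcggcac

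The Pax3 start island window ran from 392 to 591 bp downstream of the start, with 78 bases in a coding exon and 122 in an intron. Its 12 compared cytosines had 60.4% methylated reads in siCon (Wilson 95% interval 53.4 to 67.1) and 70.1% in siH19 (65.1 to 74.7). These are shares of summed reads, 192 in siCon and 348 in siH19, and do not compare each cytosine with itself. The intronic window, 7345 to 7544 bp downstream, had 3.79% (3.0 to 4.78) and 3.77% (3.0 to 4.72) over 38 cytosines. The Six4 window lay wholly in a coding exon, 816 to 1015 bp downstream, and had 0.0688% (0.0121 to 0.389) and 0.603% (0.318 to 1.14) over 34 cytosines. The CpG-rich Pax3 start was thus methylated in most reads of both libraries, and the intronic stretch, with 28 CpGs in its window against 16, in few of them. These intervals, like all others here, cover counting error only, because PCR copies of a molecule could not be recognised and 1 read covers several neighbouring CpGs.

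Levels of gene starts spanned nearly the whole scale. Within 1 kb of the start, methylated reads made up 72.6% of reads in siCon and 74.8% in siH19 at Pax3, 47.7% and 50.8% at Meox1, and 22.9% and 24.7% at Eya2. Low levels were measured at Lbx1 (6.53% and 6.24%), Pax7 (5.20% and 4.85%), Msc (4.31% and 5.34%) and Six4 (0.450% and 0.703%). Eya1 had no methylated read, 0 of 97 in siCon and 0 of 238 in siH19, which allows levels of up to 3.09% and 1.26% by a limit of 3 counts. The Wilson upper bounds of these 0 counts, used for the intervals, were 3.81% and 1.59%. With the cytosines of CCGG and TCGA sites included, these 5 low starts were at 10.4% to 29.2% in siCon. Meox2 had no compared cytosine near its start, and its start is not described. The order of the 8 genes was the same in both libraries except that Msc and Pax7 changed places. In each library the Wilson intervals of adjacent genes in this order overlapped among Lbx1, Pax7 and Msc and between Six4 and Eya1, so those adjacent places were not separated beyond counting error. Lbx1 and Msc, not adjacent in siCon, did not overlap there.

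**Figure D1:**
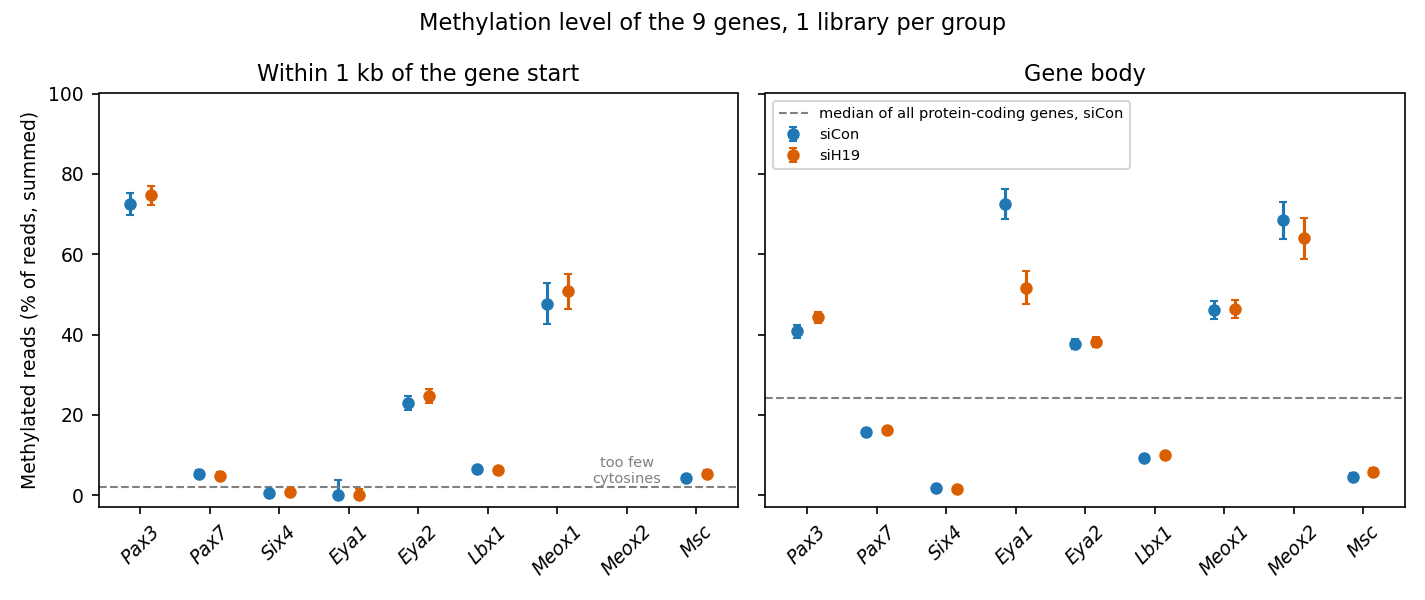
Share of methylated reads (%) within 1 kb of the start (left) and in the body (right) of each gene, in siCon (blue) and siH19 (orange), 1 library each. Bars are Wilson 95% intervals for counting error and dashed lines are the siCon medians of protein-coding genes, 2.07% for starts and 24.1% for bodies. Pax3, Meox1 and Eya2 starts stand highest above the median line, Lbx1, Pax7 and Msc starts are also above it, and Six4 and Eya1 starts lie under it.

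Across the genome, 13554 start windows of protein-coding genes with at least 5 compared cytosines had a median level of 2.07% in siCon and 2.05% in siH19. In 10949 of them the start itself lay in a computed CpG island, and their median was 1.47% and 1.45%. The starts of Pax3, Pax7, Six4, Eya1, Eya2, Lbx1 and Msc lay in such islands, and those of Meox1 and Meox2 did not. Only 122 of the 10949 island starts, 1.11%, were methylated at the level of Pax3 or above in siCon, and 1.00% in siH19. For Eya2 the share at or above was 11.6% and 11.2%. Lbx1, Pax7 and Msc were each matched or exceeded by 26.3% to 31.3% of island starts in siCon, and Six4 by 87.0%. These shares are descriptions of 2 libraries and carry no test.

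**Figure D2:**
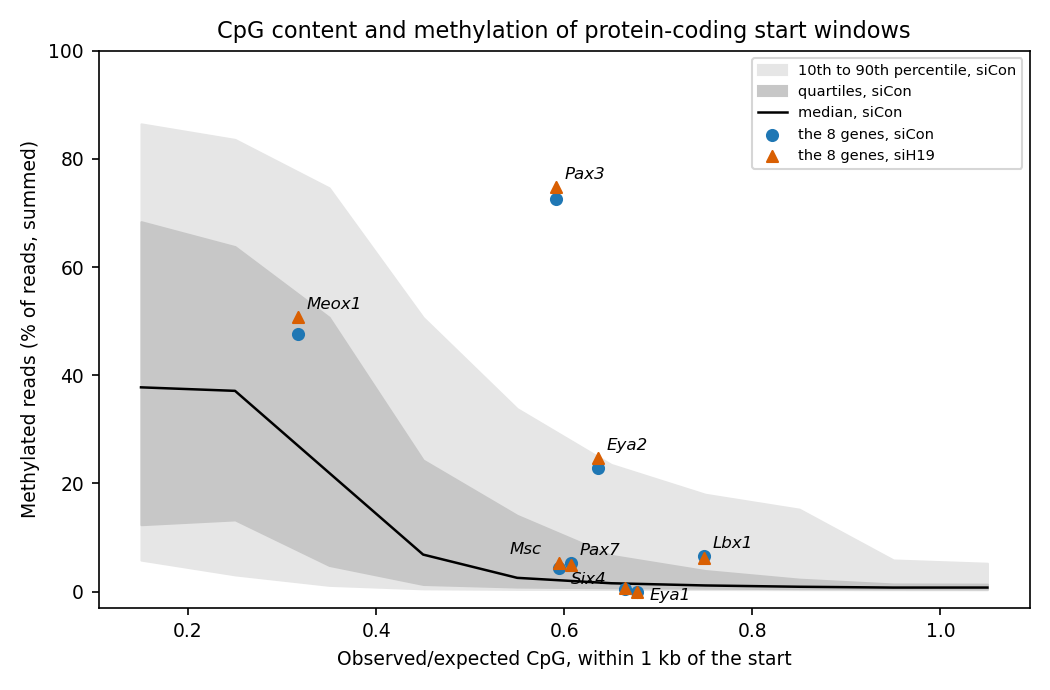
Share of methylated reads (%) against the observed to expected CpG ratio within 1 kb of the start, for protein-coding genes in bins of 0.1 (siCon median, quartiles and 10th to 90th percentiles) and for 8 of the 9 genes (blue circles siCon, orange triangles siH19). Pax3, at a ratio of 0.592, lies far above the 90th percentile of its bin, 33.8%, while Meox1 in siCon, at 0.317, lies within the quartiles of its bin, 4.84% to 50.7%.

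Pax3 (chr1:78101267-78197134, minus strand, ENSMUSG00000004872.15) gave 140 cytosines. From 70 bp upstream to 997 bp downstream of its start, 44 cytosines with 973 and 1272 reads were 72.6% methylated in siCon (69.7 to 75.3) and 74.8% in siH19 (72.3 to 77.1). Summed over the whole gene, untranslated exon sequence was at 70.7% and 69.1% and coding exons at 77.3% and 82.4%. Deeper in the gene, 12 cytosines 4689 to 4742 bp downstream were at 95.7% and 92.8%. The intronic island 7346 to 7752 bp downstream followed with 3.90% and 3.71% over 40 cytosines and 1846 and 1943 reads. Another low stretch, 15094 to 15131 bp downstream and outside the computed islands, had 22.0% and 20.8%. Beyond it, 14 cytosines 64881 to 65044 bp downstream were at 87.6% and 89.7%. Low and high stretches kept these places in both libraries, and the body as a whole was at 40.8% in siCon (39.2 to 42.3) and 44.3% in siH19 (42.9 to 45.7).

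Those body levels seem to differ, but the libraries put their reads on different cytosines of the gene. Regions were therefore compared by a depth-matched difference, in which each cytosine is set against itself and weighted by its reads in both libraries, with an exact two-sided test stratified by cytosine. For the Pax3 body this difference, siH19 minus siCon, was -0.20 percentage points (95% interval -1.46 to 1.05), and for the start it was -0.41 points (-3.82 to 3.0). Neither passed the test, with unadjusted exact p-values of 0.760 and 0.828.

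Pax7 (chr4:139737062-139833528, minus strand, ENSMUSG00000028736.13) had the most compared cytosines, 357, 261 of them in CpG islands. Its long island start, 568 bp upstream to 1909 bp downstream, was at 3.19% in siCon and 3.89% in siH19 over 116 cytosines. Low levels continued farther into the gene, with 15.6% and 15.7% at 3910 to 5367 bp, 14.0% and 11.1% at 9237 to 9847 bp, and 8.74% and 9.62% at 11220 to 12346 bp downstream. Past these islands the gene was mostly methylated, with 95.5% and 93.6% at 49029 to 49161 bp and 100% and 94.2% at 71438 to 71469 bp, though lower stretches remained, such as 14.8% and 16.7% at 35765 to 35777 bp. In siCon, 255 of the 357 cytosines had a level under 20% and 41 had one above 80%, and in siH19 the counts were 253 and 34. The body was at 15.8% (15.2 to 16.5) and 16.3% (15.7 to 17.0), a depth-matched difference of 0.36 points (-0.30 to 1.00, exact p = 0.30). At the start the difference was 0.02 points (-0.92 to 0.95), and its sign depended on how the cytosines were counted.

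Pax3 and Pax7, which are close relatives, therefore had opposite starts in both libraries. The Wilson intervals of their start levels lay far apart, 69.7 to 75.3 against 4.24 to 6.36 in siCon and 72.3 to 77.1 against 4.12 to 5.70 in siH19. The observed to expected CpG ratios of the windows were close, 0.592 for Pax3 and 0.607 for Pax7. The windows were not matched in CpG content, because the Pax7 window held more CpGs and had a higher GC share.

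**Figure D3:**
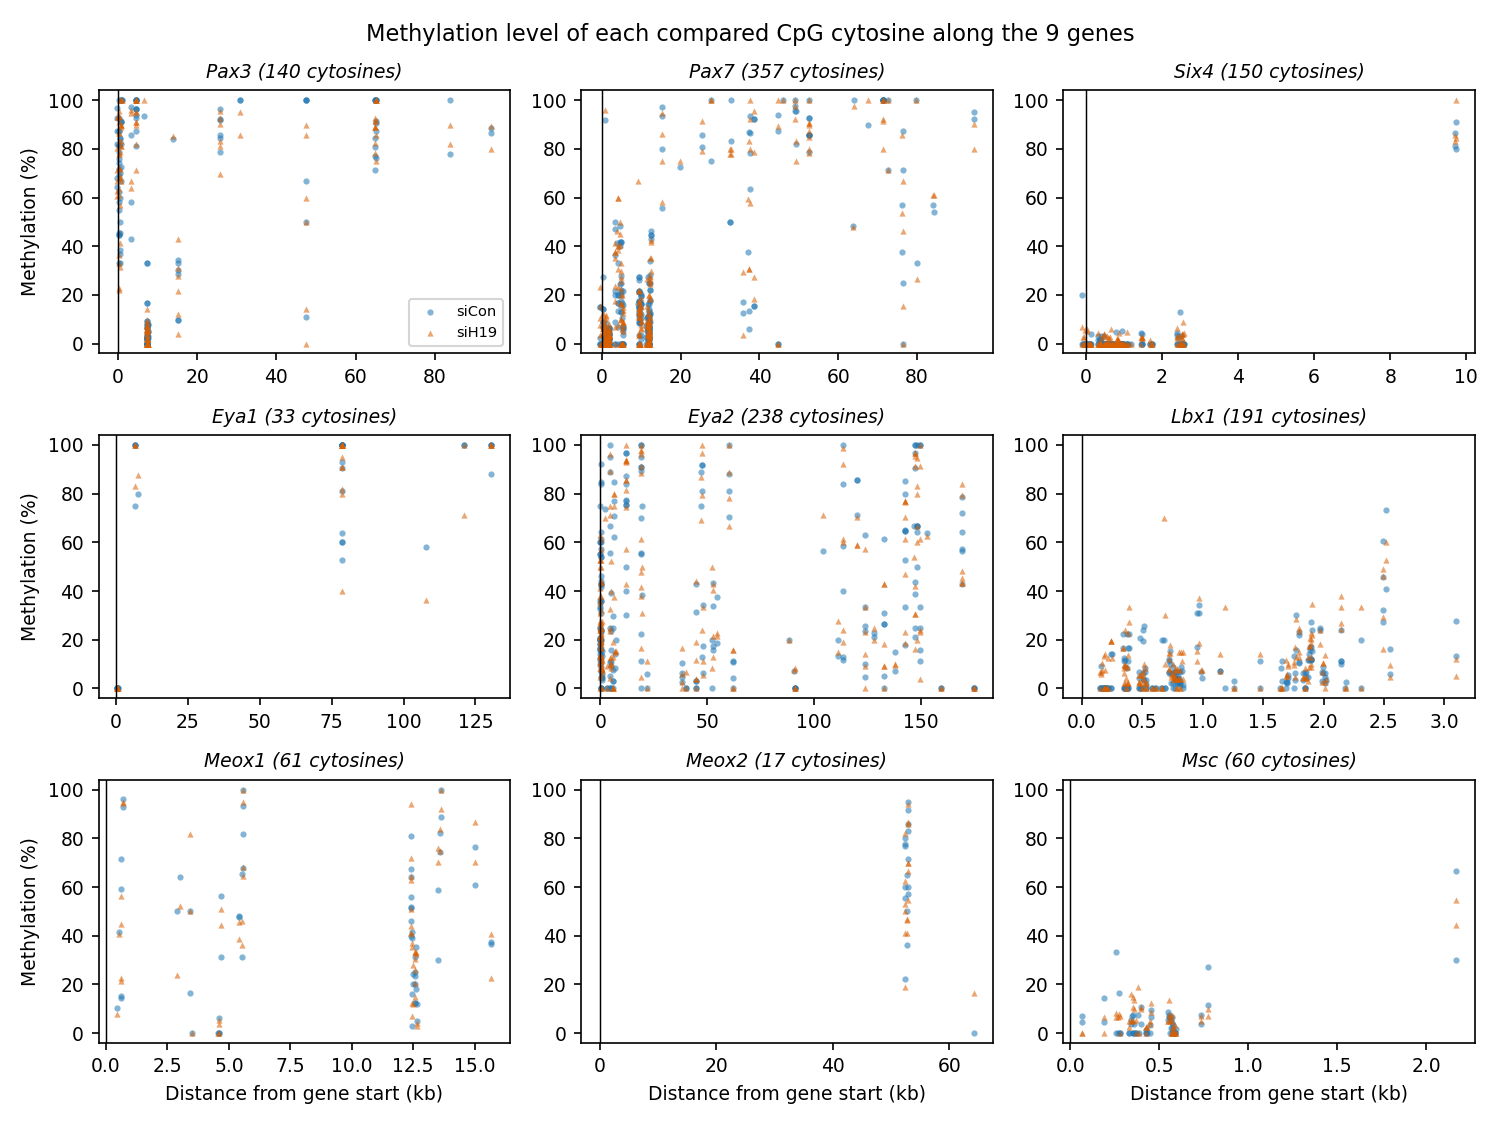
Level (%) of each compared cytosine against its distance from the gene start (kb), 1 panel a gene, siCon as blue circles and siH19 as orange triangles. Pax3 shows high levels at the start and a low cluster inside the gene, Pax7 low clusters up to 12346 bp and mostly higher, mixed levels beyond, and Six4, Lbx1 and Msc mostly low levels.

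Six4 (chr12:73099609-73113456, minus strand, ENSMUSG00000034460.9) encodes a homeodomain factor and had the lowest body level of the 9. Of 4940 reads in siCon 92 were methylated, 1.86% (1.52 to 2.28), and of 5256 in siH19 85 were, 1.62% (1.31 to 2.00). The island from 98 bp upstream to 1746 bp downstream held 126 of its 150 cytosines, with 0.471% and 0.794%. The last covered cytosines, 9704 to 9733 bp downstream, were at 85.3% and 87.2%. Matched for depth, the body was 0.42 points higher in siH19 (0.07 to 0.77, exact p = 0.0317, adjusted p = 0.250), although the share of all reads was lower there. The adjusted value, by the Benjamini-Hochberg method over every gene body tested, did not pass 0.05.

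Eya1 and Eya2 encode co-activators that partner Six4 and its relatives, and differed at their starts over the compared cytosines. With the cytosines of CCGG and TCGA sites included, the siCon starts were at 29.2% for Eya1 and 31.0% for Eya2. Eya1 (chr1:14168954-14310235, minus strand, ENSMUSG00000025932.14) had only 33 compared cytosines. The 7 in an untranslated exon, 438 to 487 bp downstream, had no methylated read, whereas its introns were at 89.3% in siCon and 91.8% in siH19 and its coding exons at 87.6% and 86.8%. The summed body level was 72.6% (68.6 to 76.2) in siCon and 51.7% (47.6 to 55.8) in siH19, which summed over reads is a difference of -20.9 points. That unmethylated exon had 97 reads in siCon and 238 in siH19, so the summed share moved with the spread of the reads. Set against itself, each cytosine gave a difference of 2.30 points in the other direction (-0.55 to 5.15, exact p = 0.171). On summed reads by Fisher's exact test Eya1 would be called, with an adjusted p of 1.5e-11, and on that test 21.4% of all gene bodies were called in one direction or the other.

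Eya2 (chr2:165595032-165771727, plus strand, ENSMUSG00000017897.18) gave 238 cytosines with widely varying levels along 176696 bp. Some stretches were almost unmethylated at their compared cytosines, such as the 5 cytosines 90619 to 90938 bp downstream, in intron and coding exon, at 2.65% and 2.19%. Site cytosines inside that stretch, left out by the rule, were at 37.5% and 0% (90897 bp) and at 47.1% and 95% (90898 bp). Other stretches were near 80%, such as the 11 cytosines 11891 to 12148 bp downstream, at 79.6% and 84.7%. In siCon 90 cytosines had a level under 20%, 36 had one above 80% and the other 112 lay between. The body was at 37.6% (36.4 to 38.8) in siCon and 38.2% (37.0 to 39.3) in siH19, with a depth-matched difference of -1.29 points (-2.61 to 0.03, exact p = 0.0644).

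The Eya2 start was the region of the 9 genes with the lowest p-value. Its 67 cytosines, from 292 bp upstream to 632 bp downstream, all lay in a CpG island. Matched for depth they were at 26.9% in siCon and 22.4% in siH19, siH19 minus siCon being -4.48 points (-6.87 to -2.09, exact p = 0.000338). The adjusted p over all start windows was 0.0106, but a call also required a difference of at least 5 points, and the window was not called. An adjusted p under 0.05 with no minimum difference was reached by 6.82% of all start windows. Treating the cytosines rather than the reads as the units, by a quasi-binomial test that scales for their excess scatter, gave an unadjusted p of 0.00696 and an adjusted p of 0.133. By strand, the difference was -2.40 points (-5.21 to 0.41) on the plus strand and -8.77 points (-13.3 to -4.30) on the minus strand.

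Within that window the difference was uneven. The 24 cytosines from 160 to 248 bp downstream, across the end of an untranslated exon and into the intron, were at 42.4% in siCon (37.8 to 47.1) and 29.5% in siH19 (26.7 to 32.4). There the depth-matched difference was -13.0 points (-17.9 to -8.15), with 18 cytosines lower and 6 higher in siH19. From 65 bp upstream to 51 bp downstream it was -0.93 points (-5.02 to 3.15), with 12 higher and 11 lower. Farther downstream it was -2.28 points (-7.69 to 3.12) at 394 to 485 bp and 3.46 points (-1.22 to 8.13) at 595 to 632 bp. The 4 cytosines farthest upstream, 292 to 253 bp before the start, gave -10.1 points (-20.7 to 0.40). These stretches were split at gaps over 100 bp after the values were seen and were not tested. Read numbers shifted too, from 427 in siCon to 998 in siH19 at 160 to 248 bp and from 427 to 252 at 394 to 485 bp, and the part of this shift in the difference was not tested.

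**Figure D4:**
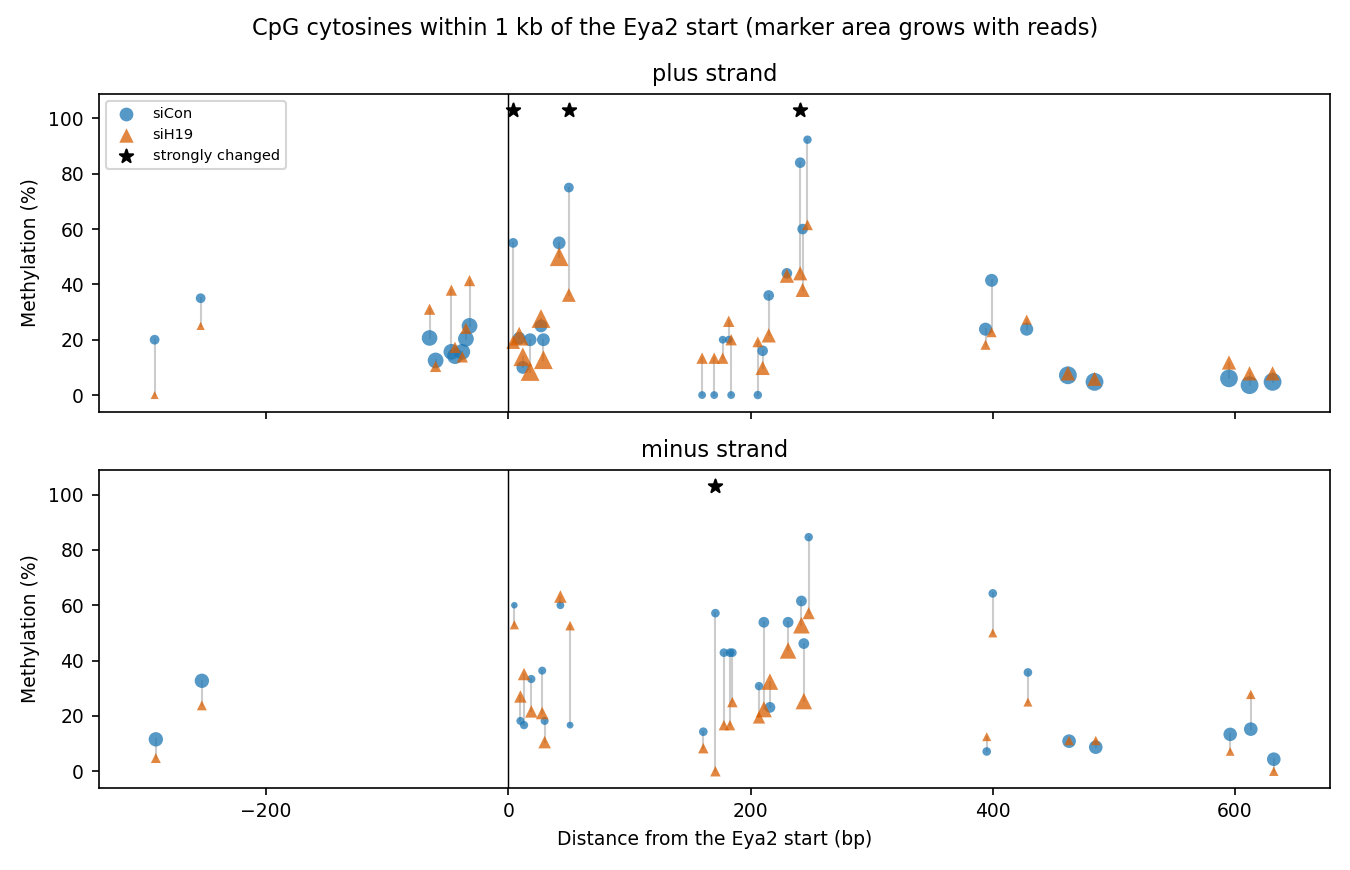
Level (%) of the 67 compared cytosines within 1 kb of the Eya2 start against their distance from it (bp), plus strand on top and minus strand at the bottom, siCon as blue circles and siH19 as orange triangles, with a grey line joining the libraries. Stars mark the 4 strongly changed cytosines, and the levels between 160 and 248 bp lie lower in siH19 at 18 of 24 cytosines.

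Single cytosines were called strongly changed at a Fisher's exact p under 0.05 and a difference of at least 33 points. Of the 1247 cytosines 8 were, 0.642%, 3 higher and 5 lower in siH19. Over all compared cytosines the share was 0.986%, with 0.519% higher and 0.467% lower. A Fisher p under 0.05 alone was reached by 36 of them, 2.89%, against 2.53% of all. None had a genome-wide adjusted p under 0.05 by Fisher's exact test, where 120 of all compared cytosines did, and the lowest adjusted p of the 9 genes was 0.164, at an Lbx1 cytosine. The shares of the 9 genes were thus near those of the whole table.

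The 8 strongly changed cytosines are shown as the single positions that passed both thresholds, 4 of them at the Eya2 start. Each line holds 30 bases of GRCm38 around the CpG, in capitals, on the strand of the gene, with its distance downstream of the gene start.
Eya2 at 4 bp, chr2:165595022-165595051, plus strand: ccctcctccgggagCGcagcggcggcagcg
Eya2 at 50 bp, chr2:165595068-165595097, plus strand: cagggccgactcccCGcccggagccagcgc
Eya2 at 171 bp, chr2:165595188-165595217, plus strand: ctgccgcagccctgCGacattcgctccgcg
Eya2 at 241 bp, chr2:165595259-165595288, plus strand: gtgcgggtgagtacCGcgctcggggacacc
Meox1 at 3437 bp, chr11:101890923-101890952, minus strand: agcaactctgaggaCGttgttacattcttg
Meox1 at 13496 bp, chr11:101880863-101880892, minus strand: tttgctggccctgtCGtgggttaggactga
Pax7 at 9237 bp, chr4:139824277-139824306, minus strand: tggaaggaacagagCGagagtaggaggggg
Pax3 at 47446 bp, chr1:78149674-78149703, minus strand: tttgctatttatttCGtgacatggttctac

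At Eya2, the cytosine 171 bp downstream (chr2:165595203, minus strand, untranslated exon) had 8 of 14 reads methylated in siCon and 0 of 24 in siH19. Its exact p was 6.1e-05 and its adjusted p 0.219. The cytosine across from it on the other strand went the other way, from 0% of 10 reads to 13.3% of 30. The one at 4 bp had 11 of 20 and 9 of 47 methylated reads, and at 50 bp the counts were 15 of 20 and 17 of 47. At 241 bp, in an intron, 21 of 25 reads were methylated in siCon and 22 of 50 in siH19. Their partner cytosines changed by -7.06, 36.0 and -8.76 points. All 4 changed positions were thus lower in siH19 on 1 strand, and the opposite strand was lower at 2 of them.

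In Meox1, 2 intronic cytosines were strongly higher in siH19. At 13496 bp downstream 6 of 20 reads were methylated in siCon and 31 of 44 in siH19 (exact p = 0.00552), and the partner was also higher, 58.6% against 76.2%. At 3437 bp the counts were 1 of 6 and 9 of 11 reads (exact p = 0.0345), and the partner was at 50% in both. In Pax7, the intronic cytosine 9237 bp downstream had 6 of 37 and 8 of 12 methylated reads (exact p = 0.00185), and its partner was not compared. In Pax3, the intronic cytosine 47446 bp downstream had 3 of 6 and 0 of 10 (exact p = 0.0357), with a partner that differed by 3.17 points upwards. Of the 7 with a compared partner, 3 had it in the same direction, and over all strongly changed cytosines with a compared partner the share was 48.1%. The Meox1 cytosine at 3437 bp and the Eya2 cytosines at 4, 50 and 241 bp were picked for description after their values were seen.

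The 2 strands of a CpG give a yardstick for such differences within 1 library. At 442 CpGs of the 9 genes with at least 10 reads on each strand in each library, the mean absolute difference between libraries at a cytosine was 5.64 points. Between the strands of 1 library it was 6.54 points in siCon and 5.85 in siH19. Strands of the same CpG therefore differed by at least as much, on average, as the libraries did.

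Lbx1 (chr19:45232684-45235812, minus strand, ENSMUSG00000025216.9), a short gene of 3129 bp, gave 191 cytosines, 187 of them in CpG islands. In siCon 164 of them were under 20% and none was above 80%, with the same counts in siH19. Its start was at 6.53% (5.79 to 7.35) and 6.24% (5.61 to 6.94), and its body at 9.30% (8.65 to 10.0) and 10.1% (9.48 to 10.8). Matched for depth the body was 0.99 points higher in siH19 (0.07 to 1.90, exact p = 0.0409, adjusted p = 0.285). The last 2 cytosines, 3097 and 3098 bp downstream, were at 17.9% in siCon and 9.84% in siH19.

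Meox1 (chr11:101877510-101894374, minus strand, ENSMUSG00000001493.9) had 61 cytosines, none in an island, and intermediate levels. Its start window was at 47.7% in siCon (42.5 to 52.9) and 50.8% in siH19 (46.4 to 55.2). The 8 cytosines of this window all lay in a coding exon, 462 to 699 bp downstream. The largest cluster, 24 cytosines 12405 to 12645 bp downstream, was at 33.1% and 34.9%, and the coding exons were at 49.6% and 54.6%. The body difference was 0.99 points (-1.63 to 3.60, exact p = 0.476) and the start difference -0.96 points (-6.32 to 4.40). Meox2 (chr12:37108540-37179534, plus strand, ENSMUSG00000036144.6) had 17 cytosines, all intronic and all in soft-masked repeats, at 68.5% (63.7 to 73.0) and 64.1% (58.9 to 68.9). Its difference of -4.27 points had the widest interval of the 9 bodies, -10.5 to 1.94, so a change of several points either way was not detectable at this depth.

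Msc (chr1:14753346-14755992, minus strand, ENSMUSG00000025930.6) had 60 cytosines, 58 of them in the island 66 to 776 bp downstream of its start. That island was at 4.31% in siCon (3.61 to 5.13) and 5.34% in siH19 (4.50 to 6.33), and the last 2 cytosines, 2168 and 2169 bp downstream, at 38.5% and 48.3%. The body was 1.07 points higher in siH19 when matched for depth (-0.08 to 2.22, exact p = 0.0850). The Msc region, start flank included, overlaps the annotated gene Gm9947. Parts of the Eya1, Eya2, Meox1 and Meox2 regions also overlap other annotated genes, and any cytosine in an overlap belongs to both.

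Over the 9 genes, no body and no start window was called at an adjusted p under 0.05 and 5 points, 0 of 9 and 0 of 8. In the genome 1.1% of 23274 bodies and 1.68% of 19476 start windows were called, so shares of 0 lie near that background. An unadjusted exact p under 0.05 was reached by 2 bodies, Six4 and Lbx1, and by 1 start, Eya2, against 15.9% of all bodies and 19.7% of all starts. An adjusted p under 0.05 with no minimum difference was reached by no body of the 9, against 3.48% of all. By the quasi-binomial test no body or start of the 9 was called, and 72 bodies and 89 starts in the genome were. Depth-matched differences were positive at 6 bodies and negative at 3, with a median of 0.42 points beside 0.13 points for all bodies. At the starts 4 were positive, 3 negative and Eya1 0, with a median of 0.01 points beside 0.09 for all starts.

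**Figure D5:**
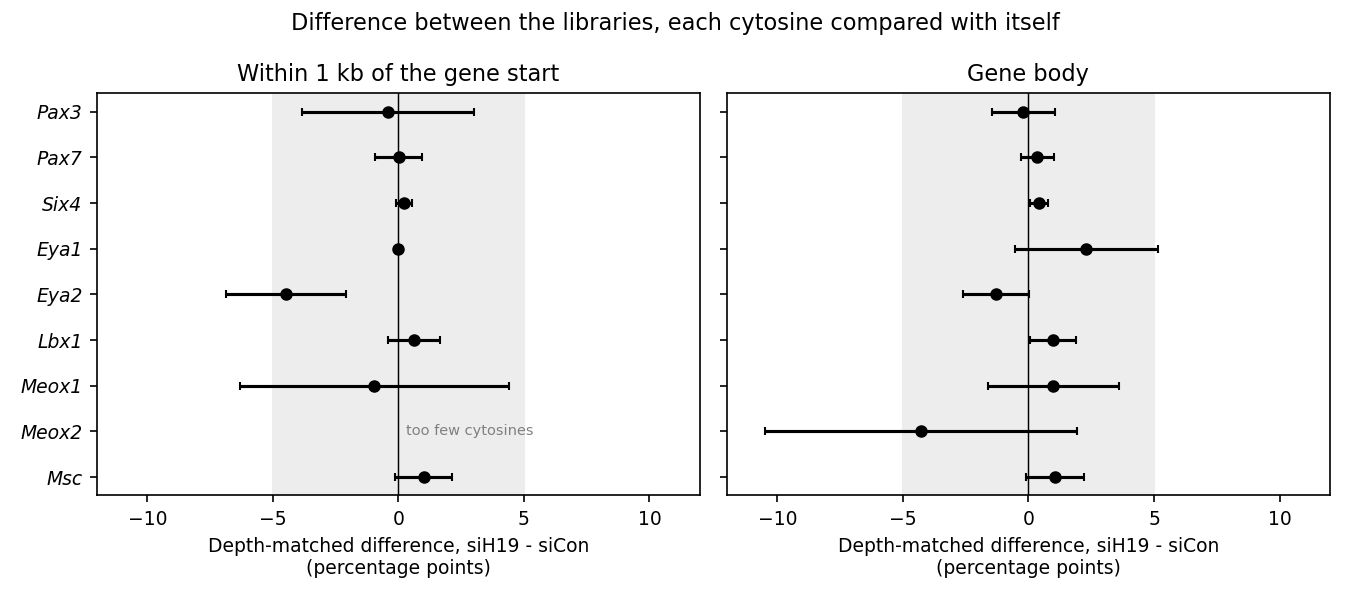
Depth-matched difference in methylation, siH19 minus siCon (percentage points), within 1 kb of the start (left) and in the body (right) of each gene, with 95% intervals for counting error. Grey bands mark differences under 5 points, and all point estimates lie inside them, with Eya2 lowest among starts at -4.48 and Meox2 lowest among bodies at -4.27.

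Shorter units gave the same count. The compared cytosines of the 9 genes formed 99 stretches without gaps over 500 bp, and 47 held the 5 cytosines needed for a test. None was called, against 1.19% of 74748 such stretches in the genome. An unadjusted exact p under 0.05 was reached by 7 of the 47, and by 12.7% of all. They included 6 cytosines of Pax3 47365 to 47446 bp downstream, at 68.9% in siCon and 50% in siH19 (depth-matched -19.0 points, -31.7 to -6.41, adjusted exact p = 0.203). A further 6, in Meox1 at 13496 to 13613 bp, were at 73.3% and 81.3% (11.6 points, 3.19 to 19.9, adjusted exact p = 0.183). Pax7 at 37191 to 37483 bp, Eya1 at 78541 to 78773 bp, Eya2 at 113419 to 113466 bp and the Lbx1 island made up the rest, with differences of 8.44, 6.20, 6.42 and 1.06 points. The Eya2 start was the only one with an adjusted p under 0.05, 0.0262, as had 1.99% of all stretches. This division into stretches was added after the data had been seen.

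Other genes of the same families and of myogenesis were counted in the same way, from lists chosen with earlier results of these data known. Among the other Pax genes 6 of 7 bodies and 6 of 7 starts could be tested and none was called. Of the other genes of the Six-Eya-Dach network 9 bodies and 8 starts of 9 were tested, with none called. For progenitor signalling and other progenitor factors, such as Met, the receptor for hepatocyte growth factor, it was 9 bodies and 7 starts of 10, and for the myogenic factors 7 bodies and 6 starts of 8, again with none called. With no minimum difference, an adjusted exact p under 0.05 was reached by the Pax6 start, at -3.76 points. The Pax5, Six3 and Barx2 bodies also reached it, at 1.68, 1.45 and -4.08 points. Over the genome it was reached by 6.82% of starts and 3.48% of bodies. Six4 and Eya1 had low starts at the compared cytosines. The 8 tested starts of the other Six-Eya-Dach genes had a siCon median of 2.95%, from 0.718% at Eya4 to 50.8% at Six2. In siH19 Eya4 was at 0.733% and Six2, whose start lay in an island, at 45.9%. A highly methylated island start was also found at Tbx1, a T-box factor of head muscle, at 90.9% and 87.7%. Myog, the myogenic factor of differentiation, was at 72.7% and 80% over 6 cytosines, but its start lay outside the computed islands. These levels are shares of summed reads. Matched for depth, the start differences were 0.43 points at Six2 (-1.13 to 2.00), -1.39 at Tbx1 (-3.92 to 1.13) and 3.46 at Myog (-3.28 to 10.2). These genes were picked for naming after their values were seen.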

How the data were processed

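A reduced representation bisulfite library was made for siCon and for siH19, 1 per group. According to the methods, alignment used Bismark (non-directional) within the pipeline of a company, filled-in nucleotides were trimmed, and a level is the share of C among reads of C or T. Removal of duplicates was not stated. The submitters' processing notes name bcl2fastq 1.8.4 and the build mm10, and all 6041258 deposited positions on assembled chromosomes were CpG cytosines of GRCm38. The deposited values were a text field of methylated and total reads per cytosine and strand, with no normalization. The deposited score, the methylated share up to 1000, only checked the parsing and matched in 100% of entries. Files held 104999613 reads summed over cytosines in siCon and 106372792 in siH19, and compared cytosines had a median depth of 24 in each, which limits the precision of single cytosines.

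Genes came from GENCODE vM21 (basic). CpG islands were computed as at least 500 bp with 55% GC and an observed to expected ratio of 0.65, which gave 21523. Cytosines outside CCGG and TCGA with 5 reads or more in both libraries were compared by Fisher's exact test. Bodies and windows of 1 kb either side of the start, with at least 5 cytosines, were compared by an exact conditional test stratified by cytosine, with a Mantel-Haenszel difference. Benjamini-Hochberg adjustment ran over all cytosines, bodies or windows of the genome. Both tests were tested on simulated data. The 9 genes and the other lists were chosen with earlier results of these data known. Named cytosines were, per gene and direction, the strongly changed one with the lowest p. Alternatives were 10 reads, summed strands, site cytosines included, repeats or the deepest 1% left out, other thresholds, other tests, unweighted means and a 2 kb window. Python 3.11.15, NumPy 2.4.6, SciPy 1.17.1, pandas 2.3.3 and Numba 0.67.0 were used.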

Additional observations from a re-analysis of the deposited data

How the results depend on the processing

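No body or start window of the 9 genes was called with 10 reads, strands summed, site cytosines included, repeats or the deepest cytosines left out, the quasi-binomial test, a 10-point minimum or, for starts, a 2 kb window. Fisher's exact test on summed reads called 1 body, Eya1, and no minimum difference called 1 start, Eya2. The 8 strongly changed cytosines became 1 with strands summed (Pax7 at 9237 bp, whose partner was not compared), 23 with site cytosines, 13 at 25 points and 0 at an adjusted p under 0.05. Site cytosines added 763 positions to the 1247. Shares over the whole data set were not computed with strands summed, with site cytosines or at 25 points, so those counts have no background beside them.

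Of 142 alternative differences 17 changed sign. On summed reads these were the bodies of Eya1 (-20.9 points), Eya2 (0.57), Pax3 (3.56) and Six4 (-0.25) and the starts of Eya2 (1.77), Lbx1 (-0.28), Meox1 (3.09), Pax3 (2.21) and Pax7 (-0.35), since reads fell on other cytosines in each library. With site cytosines they were the Meox1 start (0.32) and the Pax3 body (0.36) and start (0.24), and unweighted the Pax3 start (0.87). The Pax7 start was at -0.33 with 10 reads, -0.0439 with strands summed, -0.17 without the deepest cytosines and -0.0107 without repeats. The cause was not tested for these. The Eya2 start kept its direction in 7 other settings of the stratified comparison, from -4.71 to -3.46 points, with adjusted p from 0.00699 to 0.133. Leaving out the deepest cytosines, the 2 kb window and the quasi-binomial test returned the same difference, -4.48 points, and so were no check of its direction. The unweighted difference of the Eya2 start, -5.42, passed the 5-point minimum.

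Site cytosines of the 9 genes were at 59.6% in siCon against 20.8% elsewhere in these genes. Over the whole data set the siCon levels were 62.5% and 25.6%, and in CpG islands 53.5% and 9.75%. Including site cytosines took siCon starts from 0% to 29.2% at Eya1, 22.9% to 31.0% at Eya2 and 0.450% to 10.4% at Six4. At Msc the start went from 4.31% to 15.4%, at Pax7 from 5.20% to 14.2% and at Lbx1 from 6.53% to 14.2%. Bodies went from 1.86% to 15.1% at Six4, 4.63% to 16.1% at Msc, 9.30% to 19.1% at Lbx1 and 15.8% to 29.5% at Pax7. No paired analysis was possible because each group was 1 library.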
